A study of Glycine max with 24 samples.

Results

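FRD3b and NRAMP2A are soybean genes named after carriers that move iron and other metals between cells and organs. Each was read by 1 probe set that carries only its symbol, 11957398 for FRD3b (also called GmMATE47) and 11857844 for NRAMP2A (also called GmNRAMP2a). They are 2 of the 31107 genes with a symbol of their own, which lie on 32405 of the 75990 probe sets of the array. Both genes were selected on their measured log2 values over the 8 groups of accession, tissue and P level. Their values are therefore given as a description, without a test.

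The study grew soybean seedlings in hydroponics for 10 days in Hoagland solution, in which P was either 0.5 mmol/L (normal P) or reduced to 0.005 mmol/L (low P). The accessions were CD, which tolerates low P, and YH, which is sensitive to it. Roots and leaves of each accession at each P level gave 8 groups of 3 biological replicates, and each replicate was hybridised to 1 Affymetrix soybean array, 24 arrays in all. Each group thus stands for 1 accession at 1 age and not for tolerant or sensitive soybean in general.

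FRD3 proteins belong to the MATE family of carriers. In Arabidopsis, FRD3 releases citrate into the xylem of the root, and the citrate keeps iron soluble on its way to the shoot. NRAMP proteins carry divalent metals such as iron and manganese across membranes together with protons, and different members work at the cell surface, the vacuole or inner membranes. Phosphate binds iron, and P starvation is known to alter iron handling in Arabidopsis roots.

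The array medians lay between 7.12 and 7.51 on the linear intensity scale, and replicate arrays of a group correlated at 0.935 to 0.989 over all probe sets. The tissue labels were checked against fixed markers. All 18 photosynthesis probe sets were higher in leaves, with a summed intensity of 14518 to 18029 in leaf arrays and 2171 to 4889 in root arrays. Of 22 root probe sets, 16 were higher in roots. The leaf marker sum was higher in CD roots (4362 to 4889) than in YH roots (2171 to 2895), so it moved with the accession in roots, and its part in the root differences between CD and YH was not tested. The root marker sum was higher in CD roots in low P (3025 to 3819) than in normal P (2318 to 2820), and its part in the CD root differences between P levels was not tested. In these whole organs, fewer cells of a type and less RNA per cell cannot be told apart.

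FRD3b was a root gene in these seedlings, and its lowest root level was in CD under low P. In CD roots the log2 intensity was 5.84, 6.22 and 6.90 in normal P, a mean of 6.32 ± 0.54 (SD, n = 3). In low P the CD root arrays read 5.05, 5.10 and 4.68, a mean of 4.94 ± 0.23 (SD, n = 3). The groups did not overlap, since the highest low P array lay below the lowest normal P array. The mean log2 difference of low P minus normal P was -1.38 ± 0.22 (SE), a 2.60-fold lower level in low P. The SE of each difference here and below comes from 1 fit to all 8 groups, not from the spread of the 2 groups compared. The residual SD of FRD3b over the 8 groups was 0.28, against 0.54 and 0.23 in these 2 groups. The normal P array of replicate 3 stood highest, and without it the difference was -1.08.

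In YH roots FRD3b was at 6.92, 6.63 and 6.60 in normal P, a mean of 6.71 ± 0.18 (SD, n = 3). In low P the YH root arrays read 6.48, 6.12 and 5.87, a mean of 6.16 ± 0.31 (SD, n = 3). These groups did not overlap either, with a smaller difference of -0.56 ± 0.22 (SE), or 1.47-fold. The log2 response of CD roots minus that of YH roots was -0.82 ± 0.31 (SE).

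In leaves the FRD3b probe set was dim. Over the 12 leaf arrays its log2 intensity ran from 1.89 to 2.48, between the lower quartile (1.54 to 1.67) and the median (2.83 to 2.91) of the arrays. CD leaves read 2.10, 2.14 and 1.93 in normal P and 1.94, 2.42 and 2.48 in low P. YH leaves read 2.06, 1.96 and 1.89 in normal P and 1.91, 2.22 and 2.19 in low P. The P levels overlapped in both accessions, with log2 differences of 0.22 ± 0.22 (SE) in CD and 0.14 ± 0.22 (SE) in YH. A fall or a small rise in leaves could hardly be read at this signal.

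Between the accessions, FRD3b differed in roots under low P. There the 3 CD arrays (4.68 to 5.10) lay below the 3 YH arrays (5.87 to 6.48), with a log2 difference of CD minus YH of -1.21 ± 0.22 (SE), or 2.32-fold. In normal P the root arrays of the accessions overlapped, and the difference was -0.40 ± 0.22 (SE). That value ran from -0.69 to -0.16 as each array was left out in turn. In leaves the accessions overlapped at both P levels, with differences of 0.09 and 0.17.

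The tissue difference of FRD3b was larger than that of accession or P level. Roots exceeded leaves by 4.26 log2 units in CD in normal P (19.2-fold), 2.66 in CD in low P (6.33-fold), 4.74 in YH in normal P (26.8-fold) and 4.05 in YH in low P (16.6-fold), each ± 0.22 (SE). No root array overlapped a leaf array. Since the leaf signal is dim, these folds rest on a low denominator.

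**Figure D1:**
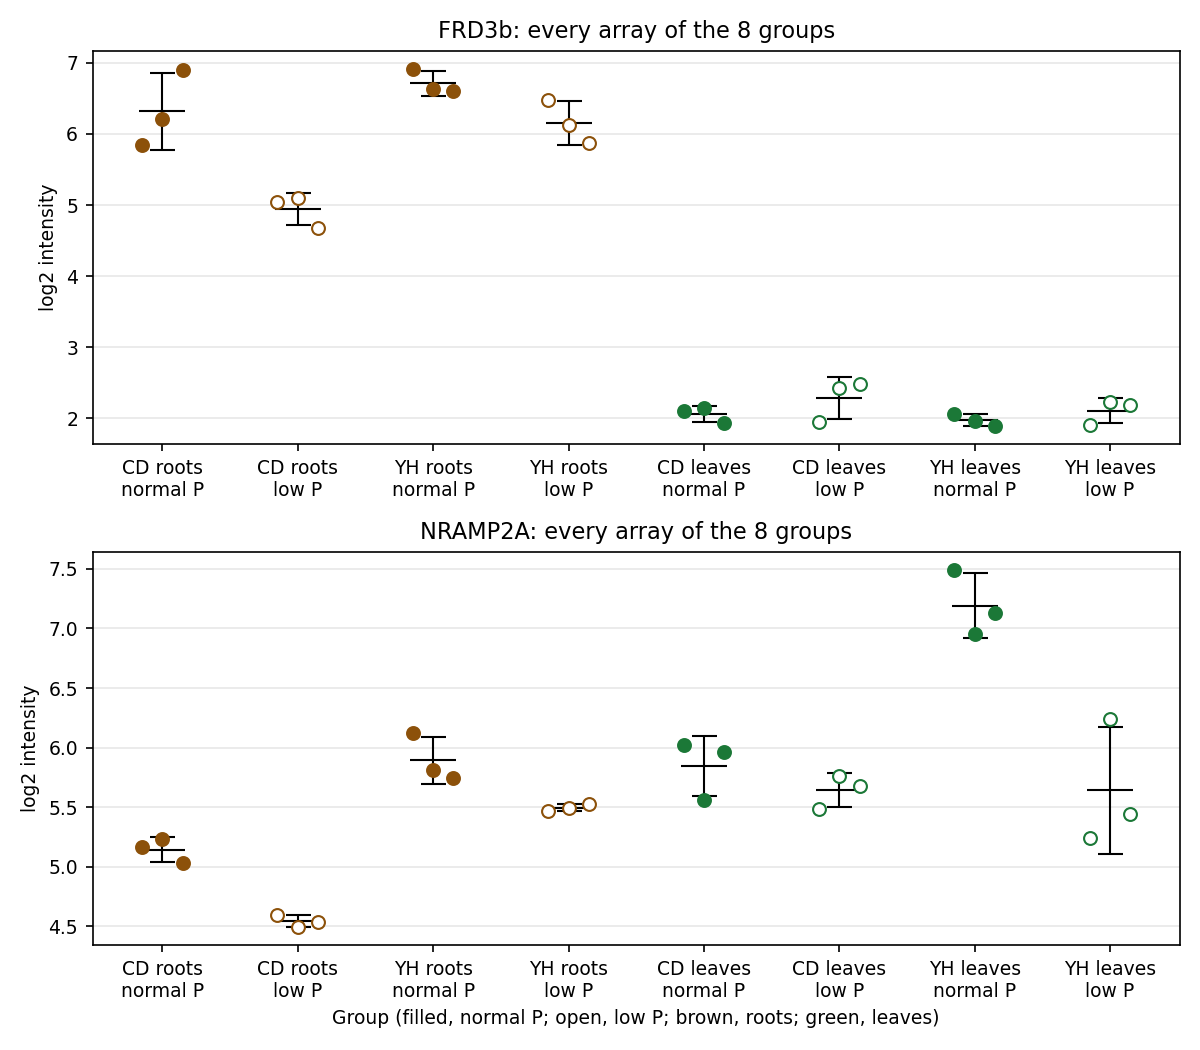
Log2 intensity of FRD3b (upper) and NRAMP2A (lower) on each array of the 8 groups, with points for arrays, the long line for the group mean and bars for 1 SD over 3 arrays. FRD3b is at 4.68 or above in root arrays and at 2.48 or below in leaf arrays, while NRAMP2A stands highest in YH leaves in normal P (6.96 to 7.49) and lowest in CD roots in low P (4.49 to 4.60).

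In order of mean level, FRD3b stood at 6.71 in YH roots in normal P, 6.32 in CD roots in normal P and 6.16 in YH roots in low P, and each of these overlapped its neighbour. CD roots in low P followed 1.21 log2 units below without overlap. The 4 leaf groups came 2.66 units lower still and overlapped each other from neighbour to neighbour.

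NRAMP2A was measured in both organs, and its highest level was in YH leaves in normal P. Those 3 arrays read 7.49, 6.96 and 7.13, a mean of 7.19 ± 0.27 (SD, n = 3). In low P the YH leaf arrays read 5.24, 6.24 and 5.44, a mean of 5.64 ± 0.53 (SD, n = 3). The groups did not overlap, and the log2 difference was -1.55 ± 0.20 (SE), a 2.93-fold lower level in low P. The residual SD of NRAMP2A over the 8 groups, on which this SE rests, was 0.25, below the SD of both YH leaf groups. The low P array of replicate 2 stood above the other low P arrays, and without it the difference was -1.85.

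In CD leaves NRAMP2A read 6.02, 5.56 and 5.96 in normal P, a mean of 5.85 ± 0.25 (SD, n = 3). In low P it read 5.49, 5.76 and 5.68, a mean of 5.64 ± 0.14 (SD, n = 3). The P levels overlapped, with a difference of -0.20 ± 0.20 (SE). The log2 response of CD leaves minus that of YH leaves was 1.35 ± 0.28 (SE).

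Roots of both accessions also had less NRAMP2A signal in low P, by less than 2-fold. CD roots read 5.17, 5.23 and 5.03 in normal P and 4.60, 4.49 and 4.54 in low P, without overlap and with a difference of -0.60 ± 0.20 (SE), or 1.52-fold. YH roots read 6.12, 5.81 and 5.74 in normal P and 5.47, 5.49 and 5.53 in low P, again without overlap, with a difference of -0.40 ± 0.20 (SE), or 1.32-fold. The response of CD roots minus that of YH roots was -0.20 ± 0.28 (SE).

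CD stood below YH for NRAMP2A in 3 of the 4 tissue and P conditions. The log2 difference of CD minus YH was -0.75 in roots in normal P, -0.95 in roots in low P and -1.35 (2.54-fold) in leaves in normal P, each without overlap. In leaves in low P the accessions overlapped and the mean difference was 0.0020 ± 0.20 (SE). It became 0.30 without the YH low P array of replicate 2.

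Leaves exceeded roots for NRAMP2A, the opposite direction to FRD3b. The log2 difference of roots minus leaves was -0.70 in CD in normal P, -1.10 in CD in low P and -1.30 in YH in normal P, each ± 0.20 (SE) and without overlap. In YH in low P it was -0.14 with overlap, and it was 0.16 without the YH leaf array of replicate 2. By mean level, YH leaves in normal P stood 1.30 units above the next group without overlap. The next 5 groups, from YH roots in normal P at 5.89 to YH roots in low P at 5.50, overlapped from neighbour to neighbour. CD roots in normal P at 5.14 and CD roots in low P at 4.54 each stood apart below them.

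**Figure D2:**
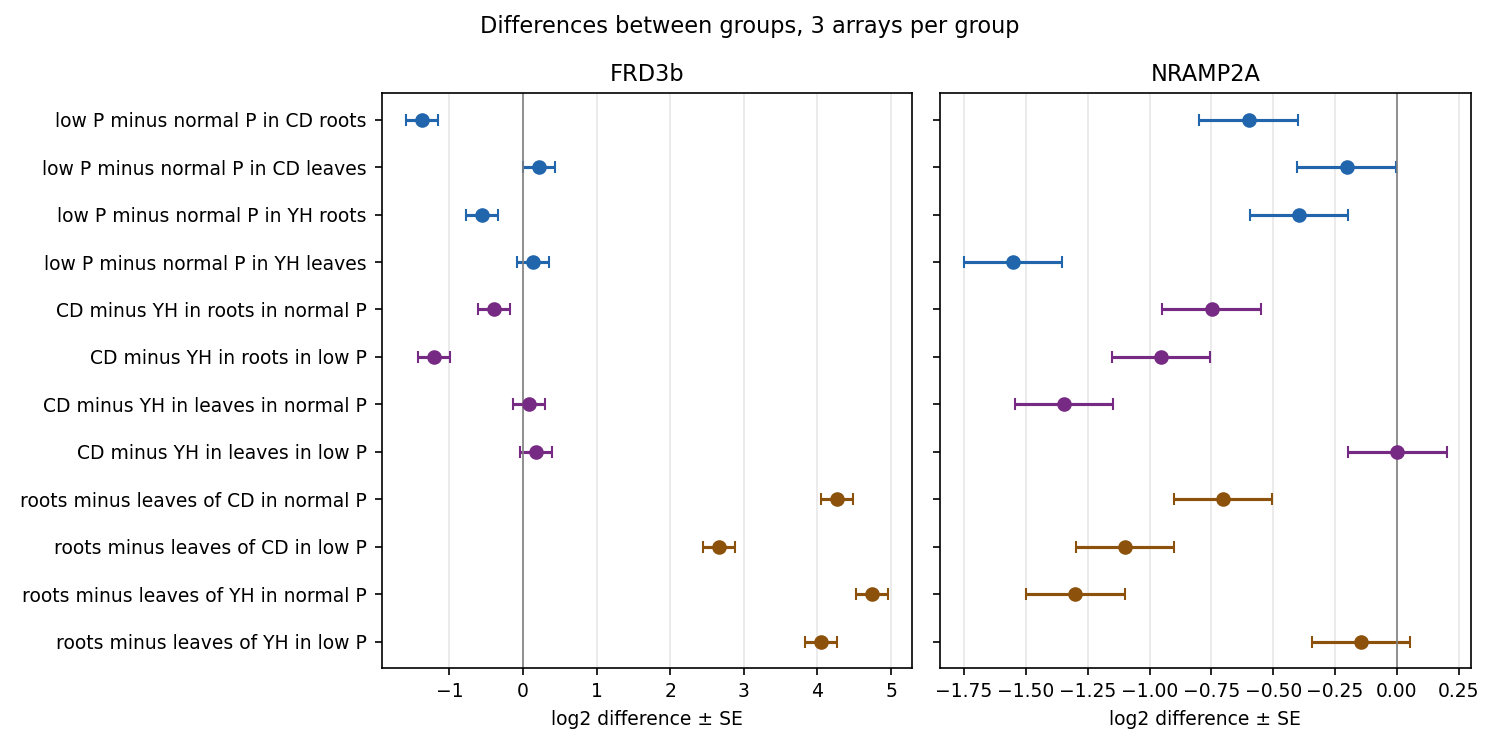
Log2 difference between group means for FRD3b (left) and NRAMP2A (right) in the 12 comparisons, with bars for 1 SE of the limma fit; the 2 panels have different horizontal scales. In low P minus normal P, FRD3b is farthest from 0 in CD roots (-1.38) and NRAMP2A in YH leaves (-1.55).

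For comparison with the whole array, a probe set was called when its adjusted p in the limma fit was under 0.05 and its change at least 2-fold. By low P against normal P this rule called 0.42% of all probe sets in CD roots, 0.00395% in CD leaves, 0.00132% in YH roots and 0.107% in YH leaves. By CD against YH it called 3.01% in roots in normal P, 3.39% in roots in low P, 8.22% in leaves in normal P and 6.92% in leaves in low P. By roots against leaves it called 14.7% in CD in normal P, 15.7% in CD in low P, 16.9% in YH in normal P and 16.7% in YH in low P. FRD3b met the rule in 6 of the 12 comparisons and NRAMP2A in 4, which describes how the genes were selected and is no test of them. For FRD3b these were low P in CD roots, CD against YH in roots in low P and all 4 tissue comparisons. For NRAMP2A they were low P in YH leaves, CD against YH in leaves in normal P and the tissue comparisons of CD in low P and YH in normal P. In a separate fit of the 6 arrays of each comparison, FRD3b no longer met the rule for low P in CD roots, nor NRAMP2A for low P in YH leaves.

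The gene nearest in name to NRAMP2A is DMT1, whose synonym is GmNRAMP2b. Soybean DMT1 is known as a ferrous iron carrier of the membrane around nodule bacteria. Its probe set (12149261) was found through the synonym, after its values had been seen. In YH leaves DMT1 read 7.70, 8.28 and 7.58 in normal P and 6.35, 6.91 and 6.05 in low P, without overlap. DMT1 fell by 1.42 ± 0.21 log2 units (SE) there (adjusted p = 0.00581). In the other organs the log2 difference of DMT1 was -0.64 for roots of CD (adjusted p = 0.466), -0.44 for roots of YH and -0.21 for leaves of CD (adjusted p = 1 in both). The DMT1 response of CD leaves minus that of YH leaves was 1.21 ± 0.30 (SE), which did not pass the test (adjusted p = 0.41).

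DMT1 was also lower in CD than in YH leaves in normal P, with a log2 difference of -1.13 (adjusted p = 0.000632). Without the YH leaf array of replicate 2 it was -0.92 (adjusted p = 0.00633), which is under 2-fold. Across arrays NRAMP2A and DMT1 correlated at r = 0.866 over 24 arrays, 0.928 over the 12 root arrays and 0.912 over the 12 leaf arrays. These points share accession, tissue and P groups, so r is a description. Whether the probes of either gene also bind transcripts of the other was not tested, since no probe sequences were used here.

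**Figure D3:**
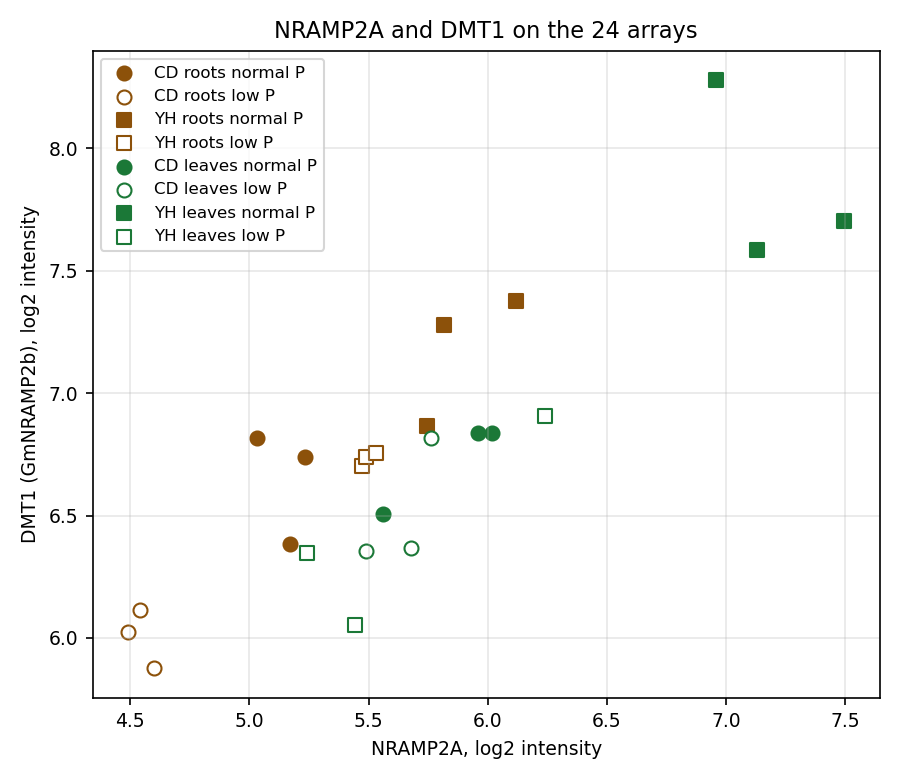
Log2 intensity of DMT1 against that of NRAMP2A, 1 point per array, with circles for CD, squares for YH, brown for roots, green for leaves, filled for normal P and open for low P. The YH leaf arrays in normal P lie at the upper right (NRAMP2A 6.96 to 7.49) and the CD root arrays in low P at the lower left (4.49 to 4.60), and r over all 24 arrays is 0.866.

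Of the 12 other NRAMP probe sets, DMT1 included, 1 was called lower in CD roots under low P and 1 in YH leaves. Of all 75990 probe sets, 72 were called lower in CD roots and 65 in YH leaves. Calls in either direction made up 0.42% and 0.107% of all probe sets. The one that fell in YH leaves was DMT1, which entered this count through its synonym after its values had been seen. The one that fell in CD roots was NRAMP7, whose substrate in soybean is not annotated in the tables used. NRAMP7 read 10.48, 11.03 and 11.04 in CD roots in normal P and 9.31, 9.90 and 9.60 in low P, and fell by 1.25 ± 0.25 log2 units (SE) without overlap (adjusted p = 0.0189). This call was lost without CD root replicate 2 or 3 in normal P (-1.16 and -1.15, adjusted p = 0.125 and 0.145). It was also lost when low P replicate 1 or 3 was left out (-1.10 and -1.25, adjusted p = 0.171 and 0.064). In YH roots its difference was -0.21 (adjusted p = 1).

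NRAMP7 resembled FRD3b in its tissue pattern. Its roots exceeded leaves by 5.41 to 6.94 log2 units, and under low P its root level in CD minus that in YH was -1.32 (adjusted p = 0.00158). Over the 12 root arrays it correlated with FRD3b at r = 0.910, and over all 24 arrays, where tissue sets most of the spread, at 0.983. The root arrays share accession and P groups, so r is a description. NRAMP7 ranked 35 there among the probe sets most like FRD3b. NRAMP5A and NRAMP5B were the other NRAMP genes called higher in roots than in leaves in all 4 tissue comparisons, NRAMP5A by 1.21 to 1.42 and NRAMP5B by 3.05 to 4.64. Their leaf means, 1.48 to 1.62 for NRAMP5A and 0.82 to 1.09 for NRAMP5B, lay at or below the lower quartile of the arrays, so the sizes of these differences are uncertain. NRAMP5B was higher in CD than in YH roots, by 1.23 in normal P (adjusted p = 0.000468) and 1.26 in low P (adjusted p = 0.00032), the opposite direction to FRD3b and NRAMP2A. NRAMP6A was lower in CD than in YH leaves, at -2.55 in normal P (adjusted p = 5.07e-05) and -2.80 in low P (adjusted p = 1.92e-05).

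Among the probe sets with 1 symbol, the only other one found by name for the MATE family of FRD3b carries the symbol MATE. In low P its log2 difference was 0.42 in CD roots, 0.10 in CD leaves, -0.17 in YH roots and -1.05 in YH leaves, and none passed the test (lowest adjusted p = 0.318). In leaves the MATE difference of CD minus YH was -2.99 in normal P (adjusted p = 2.02e-06) and -1.84 in low P (adjusted p = 0.000609), where FRD3b was dim and overlapped. FRD3a and MATE13 were not analysed here.

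**Figure D4:**
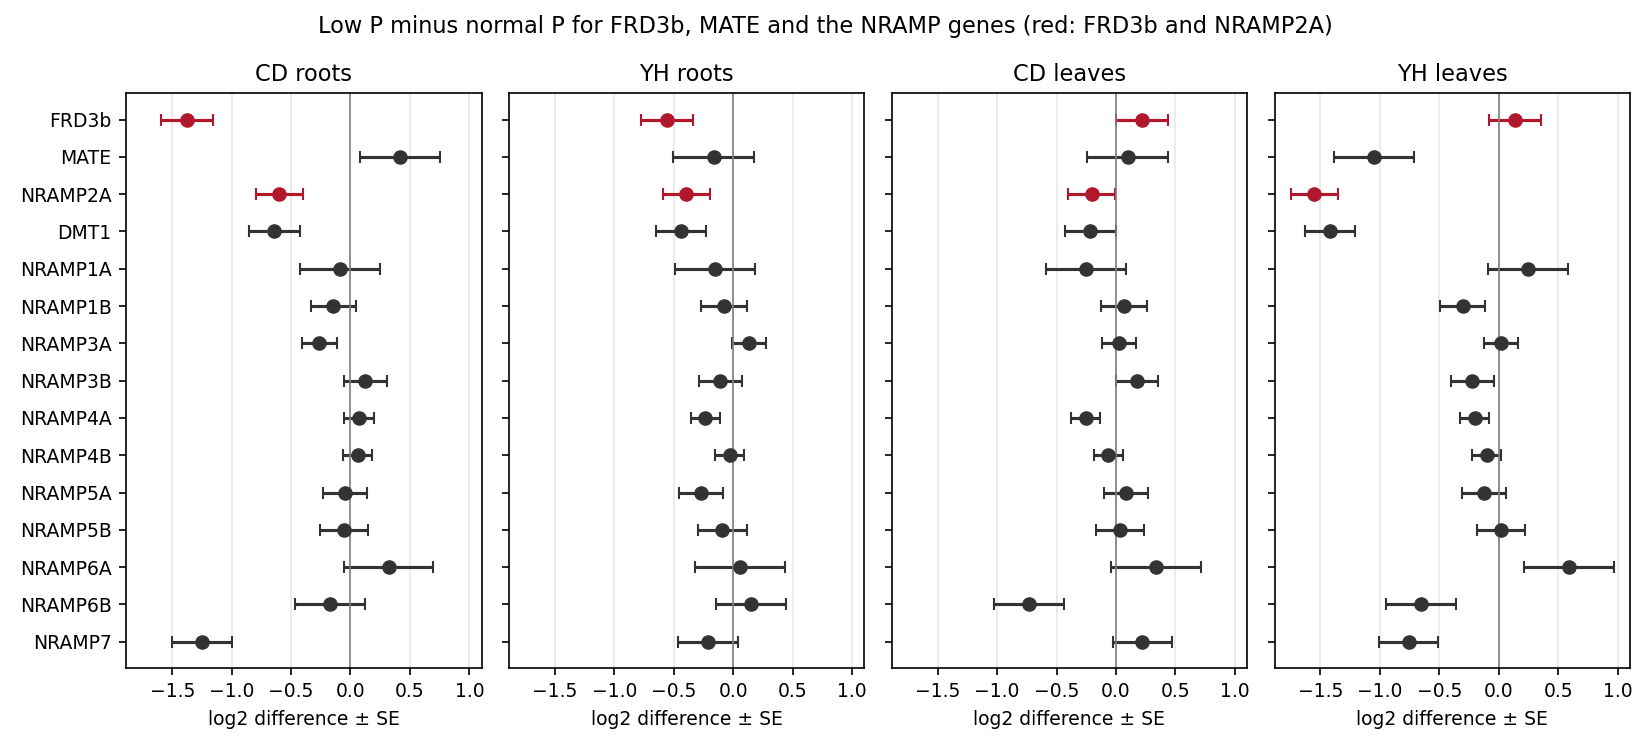
Log2 difference of low P minus normal P in each accession and organ for FRD3b, MATE, NRAMP2A, DMT1 and the other NRAMP genes, with points for the difference and bars for 1 SE; red marks FRD3b and NRAMP2A. FRD3b (-1.38) and NRAMP7 (-1.25) stand lowest in CD roots, and NRAMP2A (-1.55) and DMT1 (-1.42) in YH leaves.

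The wider list of iron and metal genes held 23 probe sets of 22 genes, found by symbol and without FRD3b and NRAMP2A. It covers NRAMP and MATE carriers, the carriers IRT, ZIP43, HMA8 and YSL1, ferritins, which store iron, and the transcription factors BHLH300 and BHLH320. In low P the rule called NRAMP7 alone in CD roots, as lower, and 3 probe sets as lower in YH leaves, with 0 called in CD leaves or YH roots. These are 4.35% and 13.0% of the list beside the shares of all probe sets given above, and rest on 1 and 3 probe sets. The 3 in YH leaves all belong to BHLH300 and BHLH320. These factors were entered in the list by name with earlier results of these data known, so their share is no test of the list. At an unadjusted p under 0.05 the list had 5 probe sets in CD roots, 2 in CD leaves, 0 in YH roots and 8 in YH leaves, where all 75990 probe sets gave 3063, 1954, 1173 and 5860. In separate fits of the 6 arrays of a comparison the list had 0 calls in CD roots and 1 in YH leaves. The median log2 difference of the list was -0.11 in CD roots, 0.05 in CD leaves, -0.09 in YH roots and -0.13 in YH leaves, against -0.01, -0.01, 0.00 and -0.00 over all probe sets.

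The 3 calls in YH leaves, where NRAMP2A and DMT1 were also lower in low P, were probe sets of transcription factors. BHLH300, a bHLH factor tied to iron uptake in soybean, read 5.84, 6.84 and 5.92 in normal P and 1.76, 1.45 and 1.27 in low P. It fell by 4.71 ± 0.23 log2 units (SE, adjusted p = 5.61e-10). BHLH320 fell on both of its probe sets, by 3.53 (adjusted p = 8.89e-05) and 2.31 (adjusted p = 0.0031). The mean low P level of BHLH300 in YH leaves is itself below the lower quartile of the arrays, so the size of its fall is uncertain. The same holds for BHLH320, with low P means of 1.40 and 1.43 in YH leaves. Its normal P arrays there had an SD of 1.02 on both probe sets. In CD leaves BHLH300 was between 0.78 and 1.31 at both P levels, below the lower quartile of the arrays.

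Ferritin H-1, the iron store also named SFerH-1 and found through its synonym after its values had been seen, moved the other way in YH leaves. It read 3.53, 2.54 and 3.10 in normal P and 4.39, 4.40 and 4.49 in low P, and rose by 1.37 ± 0.24 log2 units (SE, adjusted p = 0.0182). The call was lost without the YH leaf array of replicate 2 in normal P (1.11, adjusted p = 0.159) or in low P (1.38, adjusted p = 0.0982). In CD leaves its difference was -1.19 (adjusted p = 0.248). N-21, whose synonym is GmVTL1a and which was added in the same way, differed by 0.19 in YH leaves (adjusted p = 0.767). It stood there at 0.66 in normal P and 0.85 in low P, below the lower quartile of the arrays, so a fall or a small rise could hardly be read.

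Between accessions the list had 1 probe set higher and 1 lower in CD roots in normal P, and 1 higher and 5 lower in low P. These are 8.70% and 26.1% of the list, against 3.01% and 3.39% of all probe sets. Among all probe sets 1269 were higher and 1019 lower in normal P, and 1701 higher and 875 lower in low P. The lower calls in low P include BHLH300 and both BHLH320 probe sets. These were entered by name with earlier results of these data known, so the low P share is no test of the list. IRT, named for the iron uptake carrier of Arabidopsis roots, was lower in CD roots, with log2 differences of -2.54 in normal P (adjusted p = 3.69e-06) and -2.92 in low P (adjusted p = 4.29e-07). In leaves IRT was higher in CD, by 1.04 in normal P (adjusted p = 0.0114) and 1.26 in low P (adjusted p = 0.00317). The normal P call of IRT was lost without replicate 2 of CD leaves (0.64, adjusted p = 0.101) or of YH leaves (0.92, adjusted p = 0.0569). In CD roots in low P, BHLH300 differed from YH by -1.33 (adjusted p = 0.000773), beside FRD3b at -1.21 and NRAMP2A at -0.95. The BHLH320 probe sets differed by -1.25 and -1.34 there (adjusted p = 0.0446 and 0.0113). The call at -1.25 was lost with many single arrays left out, also arrays outside the comparison. Without CD leaf replicate 1 in normal P its adjusted p was 0.0516. The call at -1.34 was lost without replicate 1 of CD roots or replicate 3 of YH roots in low P (adjusted p = 0.0725 and 0.0546). As each array was left out in turn, the list had 4 to 6 calls in roots in low P.

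In leaves the list had 2 higher and 5 lower in CD in normal P, and 1 higher and 2 lower in low P. These are 30.4% and 13.0% of the list, against 8.22% and 6.92% of all probe sets. Among all probe sets 4181 were higher and 2069 lower in normal P, and 3617 higher and 1638 lower in low P. The lower calls in normal P again include BHLH300 and both BHLH320 probe sets, entered by name, so the normal P share is no test of the list. For BHLH300 the normal P difference was -5.16 (adjusted p = 4.1e-12), beside NRAMP2A at -1.35. The BHLH300 mean in CD leaves, 1.04, is below the lower quartile of the arrays, so this size is uncertain. Ferritin SFERH-2 was higher in CD leaves in normal P by 1.70 (adjusted p = 7.18e-06). Its mean in YH leaves in normal P, 1.34, is below the lower quartile of the arrays, so this size is uncertain too. The list median of CD minus YH was -0.12 and 0.01 in roots and -0.10 and 0.02 in leaves in normal and low P, against -0.02, -0.04, -0.06 and -0.07 over all probe sets.

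Between organs the list had 8 probe sets higher in roots in each of the 4 comparisons. Those lower in roots numbered 1 in each P level of CD and 3 in each of YH. The calls make up 39.1% of the list in CD and 47.8% in YH, against 14.7% to 16.9% of all probe sets, of which 5944 to 7819 were higher in roots and 5019 to 5598 lower. NRAMP7 was among those higher in roots, with the values given above. So were BHLH300 and both BHLH320 probe sets, in each of the 4 comparisons. These factors were entered by name with earlier results of these data known, so the shares are no test of the list. BHLH300, dim in all leaf groups but YH in normal P, was higher in roots by 1.82 to 6.38 log2 units. Ferritin SFERH-4 was higher in roots by 1.61 to 2.01, while SFERH-2 in CD in normal P had a difference of -2.10 (adjusted p = 8.59e-08). The SFERH-2 mean in CD roots in normal P, 0.94, is below the lower quartile of the arrays, so this size is uncertain. SFERH-3 in YH in low P had a difference of -2.34 (adjusted p = 9.54e-05). NRAMP6A was lower in roots of YH, at -2.15 in normal P (adjusted p = 0.000117) and -2.69 in low P (adjusted p = 7.8e-06). IRT changed direction between the accessions. It was higher in roots of YH, by 2.89 in normal P (adjusted p = 4.36e-08) and 2.47 in low P (adjusted p = 4.01e-07). In CD in low P the IRT difference was -1.71 (adjusted p = 4.88e-05). The list median of roots minus leaves was 0.15 to 0.32, against -0.06 to -0.03 over all probe sets.

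The genes whose log2 profile was most like that of FRD3b over 24 arrays were LOC100777556 (r = 0.991), LOC100811993 (0.990), LOC100790114 (0.987), LOC100802157 (0.987) and LOC100781513 (0.986), which carry no other name in the tables used. LOC100777556 stood at 8.49 in CD roots in normal P, 6.46 in CD roots in low P and 8.75 or above in YH roots, and at 2.14 or below in leaves. Since all 24 points share the tissue contrast, the 12 root arrays were also taken alone. These still share accession and P groups, so r is a description. Among the root arrays LOC100806580 and LOC100778608 (both 0.965), LOC100781513 (0.957), LOC100790114 (0.947) and LOC100527435 (0.945) were nearest. LOC100781513 and LOC100790114 were on both lists.

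For NRAMP2A the nearest over 24 arrays were LOC100809306 (r = 0.886), LOC100783072 and DMT1 (both 0.866), LOC100813353 (0.862) and LOC100776832 (0.848). LOC100809306 also stood highest in YH leaves in normal P, at 7.02, against 5.47 in YH leaves in low P. Over the 12 root arrays the nearest were LOC100779813 (0.965), LOC100805603 (0.957), LOC100806488 and LOC100809593 (both 0.956) and LOC100780594 (0.955). FRD3b and NRAMP2A themselves correlated at r = 0.825 over the root arrays, where both were lowest in CD in low P. Over the leaf arrays, where FRD3b was dim, r was -0.277, and over all 24 it was -0.446. All these arrays share groups of accession, tissue or P level, so each r is a description.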

How the data were processed

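RNA of 24 root and leaf samples was hybridised to 1 array each. The deposited values are linear intensities, which the authors normalized between arrays (RMA in the methods, MAS5 in the submitters' notes), with 0 missing values and 0 sample columns left unused. They were taken to log2 without a filter. limma 3.58.1 (R 4.3.3) was fitted to all arrays with 8 group means (residual df 16, prior df 4.22), with Benjamini-Hochberg adjustment of p-values over 75990 probe sets in each comparison. The fit was tested on simulated data. The number of arrays limits the precision.

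FRD3b, NRAMP2A and the lists were chosen with earlier results of these data known. Named were both genes, the 5 probe sets most correlated with each over all and over root arrays, their families, list members called in low P, and up to 3 called in each direction elsewhere. Ferritin SFERH-4 was named beyond this rule. Of 32405 probe sets with 1 symbol, 32402 matched RefSeq (Glycine_max_v4.0) by gene ID. List members could be found by symbol only. The planned motif search was not done, and SAM, the methods' test, was not run. Same-numbered replicates deviated together in 5 of 12 comparisons (every r over 0.1), although no source says that numbers pair samples. Alternatives were quantile normalization, median centring, a replicate block, leaving out the dimmest 33.3% of probe sets, separate fits, no fold threshold and leaving out each array.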

Additional observations from a re-analysis of the deposited data

Results flagged for a closer look

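The following differences of responses passed limma's interaction test, with p adjusted over all probe sets. BHLH300 and BHLH320 were entered in the list by name with earlier results of these data known. The low P response of BHLH300 was higher in CD leaves than in YH leaves by 4.76 ± 0.33 log2 units (SE, adjusted p = 3.29e-07) and higher in YH roots than in YH leaves by 4.52 (adjusted p = 8.4e-07). For BHLH320 (probe set 11815596) the same differences were 3.98 ± 0.52 (SE, adjusted p = 0.00232) and 3.38 (adjusted p = 0.0294). The second BHLH320 probe set, 11815599, gave 2.02 (adjusted p = 0.28) and 2.33 (adjusted p = 0.231), which did not pass. In CD leaves in normal P, BHLH300 at 1.04 and both BHLH320 probe sets at 1.27 and 1.51 lay below the lower quartile of the arrays (1.54 to 1.67). A fall could not have been read there, so these leaf differences restate the fall in YH leaves and do not show that the accessions respond differently. For ferritin H-1 the response of CD leaves minus that of YH leaves was -2.56 ± 0.33 (SE, adjusted p = 0.00232). H-1 was added after its values had been seen, so this p is that of a gene picked on these data. Its call in YH leaves was lost without replicate 2 of either P level, and its difference in CD leaves was not called. For NRAMP7 the response of CD roots minus that of CD leaves was -1.47, which did not pass (adjusted p = 0.189).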

How the results depend on the processing

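Over all alternatives, 210 of the recomputed differences of FRD3b and NRAMP2A moved by less than 1 residual SD (0.28 and 0.25) and 6 moved by more, all without 1 array. The 210 include the differences under the replicate block, which could not move. Without single arrays FRD3b ran from -1.62 to -1.08 for low P in CD roots, -0.69 to -0.16 for CD minus YH in roots in normal P and 3.97 to 4.50 for CD roots minus leaves in normal P, where the array of replicate 3 of CD roots in normal P sets the moved values. NRAMP2A ran from -1.85 to -1.35 for low P in YH leaves, -0.20 to 0.30 for CD minus YH in leaves in low P and -0.34 to 0.16 for YH roots minus leaves in low P, where replicate 2 of YH leaves in low P does. FRD3b met the rule in 6 comparisons and NRAMP2A in 4 under quantile normalization, median centring, the replicate block, the dim filter and each left-out array, with 0 changes. Both genes were selected on these values, so these counts are a description and no test. Most left-out arrays also lie outside any given comparison. Without a fold threshold NRAMP2A met the rule in 7. In separate fits FRD3b met the rule in 5, losing low P in CD roots, and NRAMP2A in 3, losing low P in YH leaves. Of the list counts, 361 stayed within 1.5 times and 11 did not. Without a fold threshold the list had 7 calls in CD against YH in leaves in low P (3 with it) and 14 in CD roots against leaves in low P (9 with it). In separate fits it had 0 in CD roots and 1 in YH leaves. With the 3 genes found by synonym, added after seeing the data, it had 5 in YH leaves. Without single arrays it had 0 to 2 in low P in CD roots and 0 to 1 in CD leaves. The replicate block changed 0 list calls in the 12 comparisons. Each group holds every replicate number once, so the block could change an SE but not a difference. The SE with the block was 0.22 for FRD3b in CD roots and 0.20 for NRAMP2A in YH leaves. Over all probe sets the block took the low P calls from 3 to 9 in CD leaves, 1 to 2 in YH roots and 81 to 170 in YH leaves. The cause of these shifts was not tested. FRD3b is dim in leaves, where a fall or a small rise is hard to read.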

Other observations

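Over the 12 leaf arrays alone, the genes most like NRAMP2A included DMT1 (r = 0.912), AGL1 (0.905) and BHLH320 (0.899), a choice made after the values were seen. These points share accession and P groups, so r is a description.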
